A study of Homo sapiens with 6 samples.

Results

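The granins and the enzymes of prohormone processing were examined in NCI-H660 cells treated with pyrvinium pamoate (PP). The members were the 10 genes *CHGA*, *CHGB*, *SCG2*, *SCG3*, *SCG5*, *PCSK1*, *PCSK2*, *PCSK1N*, *CPE* and *PAM*, taken by symbol from a table of 17177 genes. They were chosen for their role and not by a measured value, though with earlier results of these data known. NCI-H660 is an established cell line of neuroendocrine prostate cancer, the genotype label was WT in both groups, and PP is an anthelmintic drug that the study used against ELAVL3. RNA-seq was performed on day 3 in 3 libraries with PP and 3 with PBS, the control. The concentration of PP was not found for these cells in the sources used here. A legend of the study calls the samples independent, but neither it nor the labels say that they came from separate cultures, so the P values measure the spread between these libraries, which may be technical.

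Neuroendocrine cells store peptide hormones in dense-core granules. Granins are acidic proteins that condense in the trans-Golgi network and pack the granule, and chromogranin A, encoded by *CHGA*, is a serum and tissue marker of neuroendocrine tumors. In the granule, the convertases PC1/3 and PC2, encoded by *PCSK1* and *PCSK2*, cut prohormones after paired basic residues, carboxypeptidase E removes the basic residues left behind, and the monooxygenase encoded by *PAM* amidates peptides that end in glycine. The granin-like proteins proSAAS, encoded by *PCSK1N*, and 7B2, encoded by *SCG5*, act on PC1/3 as an inhibitor and on PC2 as a chaperone.

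Of the 10 genes, *PCSK2* and *PCSK1N* fell most with PP, *CHGA* and *CPE* fell less, and *CHGB*, *PCSK1* and *PAM* fell least. *SCG2* rose, *SCG3* did not pass the test, and *SCG5* was listed at or near 0. Expression was given as FPKM, the fragments per kilobase of a gene scaled to the sequenced total of the library, and the PP and PBS libraries were compared with limma on the log2(FPKM + 1) scale, where a negative value is a lower level with PP. Where a gene is low, this scale makes its change look smaller than it is. At an adjusted p under 0.05 (Benjamini-Hochberg over all 11726 genes tested), 1 of the 9 genes tested was higher and 7 were lower, while 38.1% of all genes tested were higher and 34.4% were lower. At a stricter cutoff (unadjusted P under 0.001 and a log2 fold change beyond 1 in either direction), 0 were higher and 2 were lower, when 2.24% and 2.93% of all genes were. The PP and PBS libraries did not overlap for 8 of the 9 genes, and for 75.0% of all genes. The median log2 fold change was -0.32 for the 9 genes and 0.02 for all genes tested. Changes at the adjusted threshold were thus common in this experiment, and for a single gene its size is given with its interval.

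The recovered depth was 29064154 to 32481049 counts per library. The FPKM of the 10 genes summed to 286, 283 and 279.8 with PBS and to 203, 209.7 and 211 with PP, which was 0.0877% to 0.0896% of all FPKM with PBS and 0.0656% to 0.0690% with PP. All 3 sums with PP were below all 3 with PBS. Because these were bulk samples, fewer cells with a transcript and less of it in each cell cannot be told apart. The neuroendocrine label was checked against its markers: *UCHL1* stood at 341 FPKM, *ENO2* at 69.5 and *SYP* at 30.9 with PBS. Not all markers were high, with *RUNX1T1* at 1.65 FPKM, *STMN2* at 0.965 and *ELAVL4* at 0.0109 with PBS. *ELAVL3* itself was low, at 0.9003, 0.798 and 0.912 FPKM with PBS and 0.789, 1.03 and 1.35 with PP, and it was below the mean FPKM of 1 needed for the test.

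The promoters of the 10 genes were read for the cAMP response element, TGACGTCA, the site of CREB-family factors. They were also read for a sequence that shares its first letters, TGACGTG. On the other strand the latter reads CACGTCA. The RefSeq promoters of GRCh38.p14, from 250 bases before to 50 after the start site, held 12 windows for 8 of the 10 genes. *CHGB* and *SCG2* had none in that table. TGACGTCA was present in 2 of the 12 windows, in *CHGA* and *PCSK1*, and in 1.85% of all 35116 promoters. TGACGTG was present in 3 of the 12 windows, in *CPE*, *PCSK1* and *PCSK2*, and in 1.97% of all promoters. The stretches of 30 bases around these matches are shown 5′ to 3′ on the strand of the gene and with the match in capitals:
CHGA, chr14:92923085-92923114, plus strand: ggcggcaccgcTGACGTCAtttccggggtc
PCSK1, chr5:96433307-96433336, minus strand: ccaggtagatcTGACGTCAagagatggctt
PCSK1, chr5:96433279-96433308, minus strand: tttcgtcgattTGACGTGtaaacactcatt
CPE, chr4:165378776-165378805, plus strand: tccatacgcagTGACGTGggtgggtcatgg
CPE, chr4:165378877-165378906, plus strand: catttggctgtTGACGTGgttccgagccag
PCSK2, chr20:17226931-17226960, plus strand: gctggcggactCACGTCAcccgagctggtg
Counted in bases from the start site, the matches began at -54 in *CHGA*, at -77 and -49 in *PCSK1*, at -221 and -120 in *CPE*, and at -98 in *PCSK2*.

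A pair of E-box sequences was also searched. CACGTG, the E-box of MYC-family factors, was in 0 of the 12 windows and in 7.26% of all promoters. CAGCTG, another E-box sequence, was in windows of *PAM*, *PCSK1* and *SCG3*, that is in 4 of the 12 windows, and in 17.9% of all promoters. None of the motifs searched contains another, and both strands were read. The motifs were chosen with the changes known, and a match is only a description of the letters in these windows.

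Among the granins, *CHGA* stood at 44.1, 42.4 and 43.3 FPKM in the PBS libraries and at 25.3, 25.5 and 23.5 in the PP libraries. Every PP library was below every PBS library. The mean went from 43.3 ± 0.87 to 24.8 ± 1.10 FPKM (SD, n = 3), or 57.2% of the control, and the log2 fold change was -0.78 (SE 0.0422, 95% interval -0.88 to -0.69, limma adjusted p = 8.92e-08). *CHGB*, which encodes chromogranin B, the companion of chromogranin A in the granule, stood at 34.2, 34.9 and 35.8 FPKM with PBS and at 28.1, 29.2 and 26.3 with PP. These groups did not overlap either, but the change was smaller, with 79.7% of the control left and a log2 fold change of -0.32 (SE 0.0453, 95% interval -0.42 to -0.22, adjusted p = 0.00011).

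The secretogranins did not follow the chromogranins. *SCG2*, which encodes secretogranin II, the precursor of secretoneurin, stood at 8.89, 8.03 and 7.68 FPKM with PBS and at 12.3, 13.7 and 14.4 with PP. It was the one gene of the 10 that rose, with all 3 PP libraries above the PBS libraries. The mean with PP was 165% of the control, and the log2 fold change was 0.66 (SE 0.0678, 95% interval 0.51 to 0.81, adjusted p = 1.03e-05). *SCG3*, whose product binds chromogranin A and helps it to reach the granule, was the most abundant of the 10 in both groups, at 69.0, 64.3 and 64.3 FPKM with PBS and 65.2, 71.3 and 74.4 with PP. The libraries overlapped, and the log2 fold change of 0.09 (95% interval -0.02 to 0.20) had an adjusted p of 0.132. Without PP replicate 1, which was the lowest of the 3, it was 0.14 with an adjusted p of 0.0157, so the call for *SCG3* rested on that library.

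**Figure D1:**
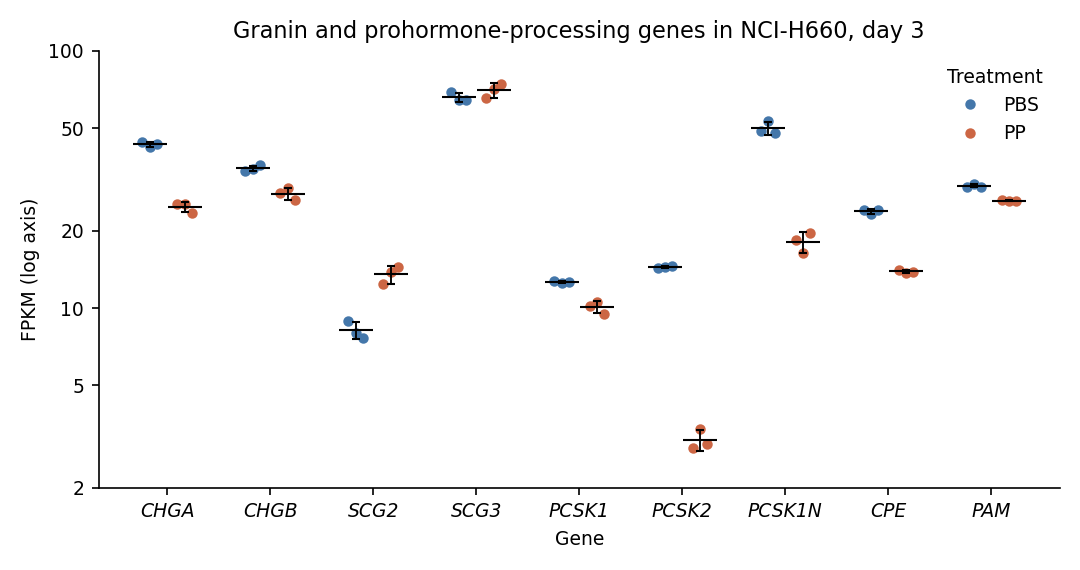
FPKM on a log axis of the 9 genes that were tested, by treatment on day 3. Each point is a library, and the horizontal lines with bars are the mean ± SD of 3 libraries. The groups are farthest apart for *PCSK2*, where the PBS libraries lie between 14.4 and 14.6 and the PP libraries between 2.85 and 3.39, and *SCG2* is the gene whose PP points all lie above the PBS points.

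The convertases were affected unequally. *PCSK2*, which encodes PC2, stood at 14.4, 14.5 and 14.6 FPKM with PBS and at 2.85, 3.39 and 2.97 with PP. With 14.5 ± 0.101 against 3.07 ± 0.284 FPKM, PP left 21.2% of the control level, a 4.71-fold difference that rested on 2110 to 2257 recovered counts per PBS library and 435 to 509 per PP library. The log2 fold change was -1.93 (SE 0.0592, 95% interval -2.06 to -1.80, limma adjusted p = 1.45e-09), and 0.2985% of all genes tested had a lower one. *PCSK1*, which encodes PC1/3, stood at 12.8, 12.5 and 12.7 FPKM with PBS and at 10.1, 10.6 and 9.49 with PP. It kept 79.7% of the control level, with a log2 fold change of -0.30 (SE 0.0497, 95% interval -0.41 to -0.19, adjusted p = 0.000309) and no overlap between the groups.

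The partners of the convertases differed in level from the start. *PCSK1N*, which encodes the PC1/3 inhibitor proSAAS, was the second most abundant of the 10 genes with PBS, at 48.7, 53.4 and 47.8 FPKM, and it stood at 18.4, 16.3 and 19.6 with PP. The highest PP library was far below the lowest PBS library. The mean of 49.99 ± 3.02 FPKM went to 18.1 ± 1.66, or 36.2% of the control, with a log2 fold change of -1.42 (SE 0.0656, 95% interval -1.57 to -1.27, adjusted p = 2.87e-08). *SCG5*, which encodes the PC2 chaperone 7B2, was listed at 0 in 5 libraries and at 0.0272 FPKM in PP replicate 1. If that value is 1 count, 3 counts would be 0.0815 FPKM. A change of *SCG5* was not detectable in these values, and the gene was not tested.

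Of the later enzymes, *CPE*, which encodes carboxypeptidase E, stood at 24.0, 23.2 and 24.0 FPKM with PBS and at 14.0, 13.7 and 13.9 with PP. It kept 58.5% of the control level, close to the share of *CHGA*, with a log2 fold change of -0.73 (SE 0.0397, 95% interval -0.82 to -0.64, adjusted p = 9.08e-08). *PAM* stood at 29.6, 30.3 and 29.6 FPKM with PBS and at 26.3, 26.1 and 26.0 with PP. Its libraries did not overlap either, but 87.5% of the control level was kept, and the log2 fold change of -0.19 (SE 0.0358, 95% interval -0.27 to -0.11, adjusted p = 0.000895) was the smallest of those that passed the test. This change lay within the middle of the distribution of all genes, between its lower quartile of -0.26 and its upper quartile of 0.28.

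**Figure D2:**
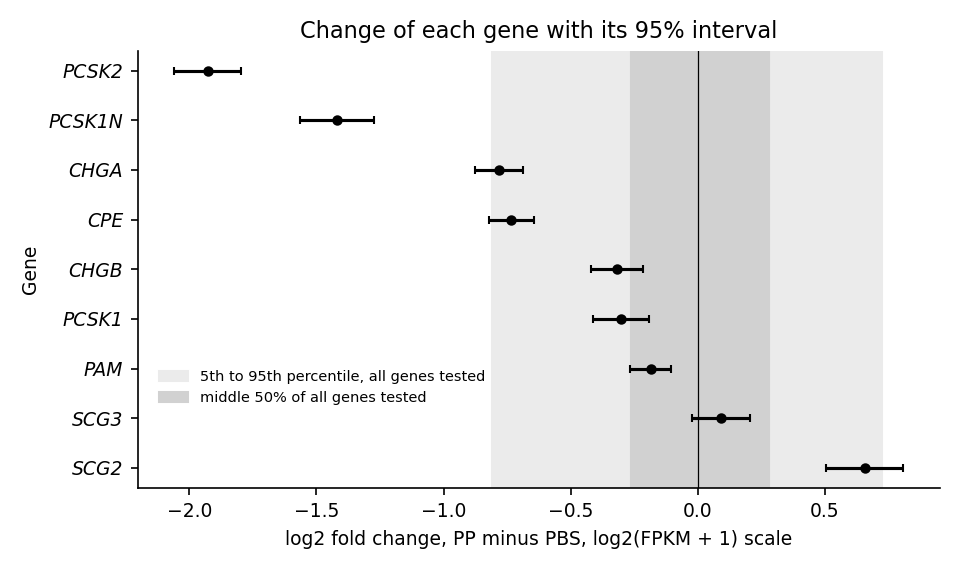
Log2 fold change with PP against PBS, on the log2(FPKM + 1) scale, of the 9 genes tested, with points for the limma estimate and bars for its 95% interval. The shaded bands are the 5th to 95th percentiles (-0.81 to 0.72) and the middle 50% (-0.26 to 0.28) of all genes tested. *PCSK2* (-1.93) and *PCSK1N* (-1.42) lie below both bands, and the interval of *SCG3* includes 0.

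As a result the order of levels was different in the treatment groups. FPKM is per length, so levels were set side by side between genes. It is scaled for length and library total only, so small gaps between genes are uncertain. With PBS the order from high to low was *SCG3*, *PCSK1N*, *CHGA*, *CHGB*, *PAM*, *CPE*, *PCSK2*, *PCSK1*, *SCG2* and *SCG5*, and no neighbors in that order had overlapping libraries. With PP it was *SCG3*, *CHGB*, *PAM*, *CHGA*, *PCSK1N*, *CPE*, *SCG2*, *PCSK1*, *PCSK2* and *SCG5*, and the neighbors *CHGB* and *PAM*, as well as *CPE* and *SCG2*, overlapped. *PCSK1N* moved from the second to the fifth place, and *PCSK2* went from above *PCSK1* to below it.

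Ratios within a library show the same shifts for genes with a known link, and 6 pairs were compared. With 3 libraries against 3, the exact two-sided permutation test cannot go below p = 0.1, which every pair reached (0.1 after adjustment over the 6 pairs), so no pair can pass 0.05. The ratio of *PCSK1* to its inhibitor gene *PCSK1N* was 0.262, 0.233 and 0.265 with PBS and 0.551, 0.648 and 0.485 with PP, and the difference of the log2 ratios, with 1 added to each FPKM, was 1.12. For *PCSK1* over *PCSK2* it was 0.890, 0.860 and 0.871 with PBS and 3.55, 3.12 and 3.20 with PP, a difference of 1.63. The transcript of PC1/3 thus went from slightly less to over 3 times as abundant as that of PC2, by FPKM.

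The other pairs moved less. *CHGA* over *CHGB* was 1.29, 1.22 and 1.21 with PBS and 0.901, 0.874 and 0.895 with PP, so that *CHGA* was the higher of the chromogranins in every PBS library and the lower in every PP library (difference of the log2 ratios -0.46). *SCG2* over *SCG3* was 0.129, 0.125 and 0.119 with PBS and 0.189, 0.193 and 0.194 with PP (0.57). *CPE* over *PAM* was 0.812, 0.765 and 0.810 with PBS and 0.534, 0.527 and 0.533 with PP (-0.55). For the sixth pair, *PCSK2* and its chaperone gene *SCG5*, the difference of -1.94 is that of *PCSK2*, since *SCG5* was listed at or near 0.

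**Figure D3:**
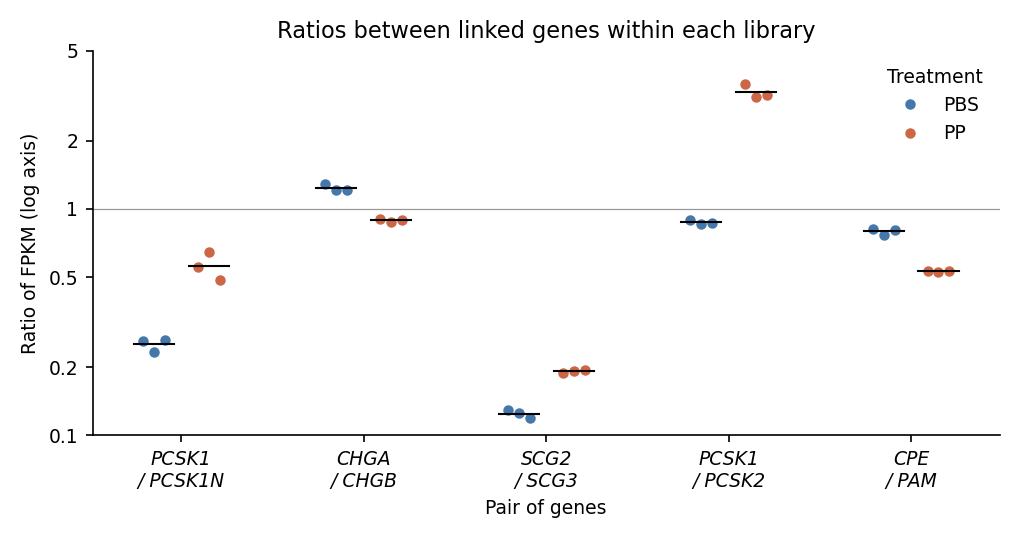
Ratio of the FPKM values of linked genes within each library, on a log axis, with a point per library and a line for the mean of 3. The PBS and PP points are apart in all 5 pairs shown, and *PCSK1* over *PCSK2* moves across 1, from between 0.860 and 0.890 to between 3.12 and 3.55.

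Other genes of the secretory granule were described by lists written from general knowledge. Of 18 granule genes, 12 were tested, of which 3 were higher, 7 were lower and 2 did not pass, with a median log2 fold change of -0.33, and none was past the cutoff. The lower ones included *VPS41*, a trafficking gene needed for granule formation (27.2 to 20.7 FPKM, log2 fold change -0.38, adjusted p = 1.17e-05), and the higher ones *RAB2A*, a small GTPase of the Golgi (73.1 to 82.1 FPKM, 0.16, adjusted p = 0.00192). *RAB3D* had the lowest log2 fold change of those tested on the log2(FPKM + 1) scale, with 6.70 and 3.49 FPKM (-0.78, adjusted p = 2.46e-05). *CADPS* was next on that scale, with 4.04 and 1.96 FPKM (-0.77, adjusted p = 4.45e-06). By FPKM, *CADPS* fell more, to 48.4% of the control against 52.1% for *RAB3D*. Both were named after their values were seen. *HID1*, which encodes a trans-Golgi protein of granule maturation, stood at 18.1, 18.6 and 17.8 FPKM with PBS and at 34.6, 34.4 and 32.4 with PP. It rose by more than *SCG2*, with a log2 fold change of 0.86 (SE 0.042, adjusted p = 4.16e-08). *VGF*, a granin-like gene, stood at 13.0, 12.6 and 12.9 FPKM with PBS and 10.2, 10.8 and 10.2 with PP, and its log2 fold change of -0.28 (adjusted p = 0.000256) was close to those of *CHGB* and *PCSK1*; it was named after its values were seen.

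Convertases outside the granule and other peptide-processing enzymes formed a list of 23 genes. Of its 13 tested genes, 2 were higher, 7 were lower and 4 did not pass, with a median of -0.15. *FURIN*, the constitutive convertase of the trans-Golgi network, went from 12.1 ± 0.195 to 10.997 ± 0.197 FPKM (log2 fold change -0.12, adjusted p = 0.0264), and *PCSK7*, another widely expressed convertase, had a log2 fold change of 0.05 (adjusted p = 0.429). *CPD*, which encodes a carboxypeptidase of the constitutive pathway with the same specificity as *CPE*, had one of 0.05 (adjusted p = 0.316). *CPM*, another carboxypeptidase gene of the list, fell from 6.67 to 3.70 FPKM (log2 fold change -0.71, adjusted p = 1.94e-06). *FURIN*, *PCSK7*, *CPD* and *CPM* were named after their values were seen. The most abundant genes of the list, *ECE1* (-0.75), *RNPEP* (-0.70) and *MBTPS1* (-0.28), all fell.

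In that list 3 genes passed the cutoff. *MME*, which encodes neprilysin, a cell-surface enzyme that degrades peptides, stood at 17.0, 15.1 and 17.2 FPKM with PBS and at 4.92, 4.63 and 5.10 with PP (log2 fold change -1.57, SE 0.0606, adjusted p = 7.87e-09). *CTSB*, which encodes the lysosomal protease cathepsin B, fell from 9.28 ± 0.131 to 3.40 ± 0.412 FPKM (-1.23, adjusted p = 1.16e-07). *CPXM2*, a member of the carboxypeptidase family, rose from 7.11 ± 0.242 to 16.9 ± 0.408 FPKM (1.14, adjusted p = 1.1e-08).

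The prohormones themselves were mostly low. Of 46 cargo genes, 33 were in the table and 8 were tested, of which 3 were higher, 4 were lower and 1 did not pass, with a median of -0.08. *CALCB*, which encodes a calcitonin gene-related peptide, stood at 9.71, 7.48 and 8.92 FPKM with PBS and at 49.3, 48.4 and 47.8 with PP. It was the one cargo gene past the cutoff, with a log2 fold change of 2.36 (SE 0.0732, adjusted p = 1.57e-09), and since *CALCA* is a close paralog, at 0.390 FPKM with PBS and 0.726 with PP, reads of the 2 genes may have been divided between them in a way that is uncertain. *NPY*, which encodes neuropeptide Y, an amidated peptide, was the most abundant cargo gene with PBS and fell from 58.8 ± 5.29 to 44.8 ± 1.12 FPKM (-0.38, adjusted p = 0.000167). *ADM*, which encodes adrenomedullin, also an amidated peptide, rose from 5.44 ± 0.162 to 8.97 ± 0.0705 FPKM (0.63, adjusted p = 1.18e-06).

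**Figure D4:**
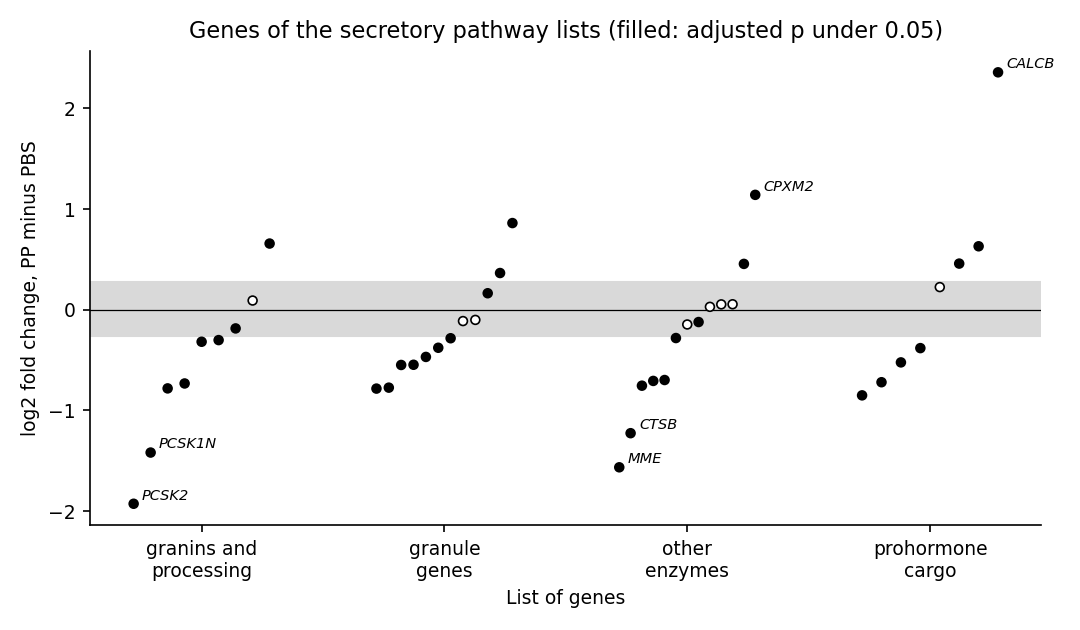
Log2 fold change with PP against PBS, on the log2(FPKM + 1) scale, of every tested gene of the granin and processing genes and of the lists of granule genes, other enzymes and prohormone cargo, with the genes of each list ordered by value. Filled points have a limma adjusted p under 0.05, the grey band spans the middle 50% of all genes tested (-0.26 to 0.28), and names mark genes past the cutoff, from *PCSK2* at -1.93 to *CALCB* at 2.36.

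Among 16 neuroendocrine markers, 14 were tested, of which 3 were higher, 6 were lower and 5 did not pass, with a median of -0.05. *DDC*, which encodes the decarboxylase of monoamine synthesis, stood at 2.63 ± 0.416 FPKM with PBS and 0.115 ± 0.0448 with PP (log2 fold change -1.70). It passed the filter on low values only through the PBS group, so no test is given for it, although it is among the 6 lower genes. *RUNX1T1*, a corepressor gene, rose from 1.65 to 4.93 FPKM (1.16, adjusted p = 1.77e-07). *UCHL1*, a neuronal hydrolase gene, had a log2 fold change of -0.03 (adjusted p = 0.384), and *ENO2*, the neuronal enolase gene, one of -0.15 (adjusted p = 0.0198). *DLL3* (-0.79), *SEZ6* (-0.65) and *SYP* (-0.23) were also lower, and *SYT1* (0.45) was also higher. These were named after their values were seen. Among all genes tested, 38.1% were higher and 34.4% were lower, so changes in both directions within a list were common.

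Markers of other cells were measured in the same libraries. The 9 luminal prostate markers in the table summed to 965 to 983 FPKM with PBS and 946 to 1015 with PP, nearly all of it from *KRT8* and *KRT18*, and *STEAP1* stood at 0.852 FPKM with PBS and 3.54 with PP, passing the filter on low values only through the PP group. Fibroblast markers (8 of 8 in the table) summed to 4.10 to 4.52 FPKM with PBS and 4.51 to 4.94 with PP, mostly *COL1A1*, with 6 under 0.1. Immune markers (8 of 8) summed to 2.77 to 3.58 FPKM and 2.17 to 3.09. Most of it was *CD14* (1.44 and 1.47) and *CD68* (1.41 and 1.09), which did not pass the test. *PTPRC* was at 0.0085 and 0.0034, and *CD3D* was listed at 0. Endothelial markers (6 of 6) summed to 4.33 to 4.76 FPKM and 2.97 to 3.38, mostly *CDH5*, which fell (-0.39, adjusted p = 0.00112), with *PECAM1* at 0.0044 and 0.0117. Erythroid markers (4 of 4) summed to 0 to 6.61 FPKM with PBS and 0.504 to 2.73 with PP, and none was tested. The part of these markers in the changes of the granins and processing genes was not tested.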

How the data were processed

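RNA-seq libraries of NCI-H660 cells (3 with PBS, 3 with PP, day 3) were used. The authors deposited FPKM values for 17177 gene symbols, of which 268 were at 0 in every library. Per the submitters' processing notes, fastp, HISAT2, HTSeq and GRCh38 were used, whereas the study's methods name Bowtie, hg19, RSEM, Cufflinks and HTSeq, so the aligner and build of this table are uncertain and no gene coordinates are taken from it. The labels describe a stranded kit and a sequencer of the HiSeq X series, the methods a HiSeq2000. The methods give duplicates, whereas a figure legend gives 3 independent samples, as many as the labels. All 6 libraries were used.

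Whole counts were recovered from the steps of each gene's FPKM for 16133 of the 16133 genes with 2 or more values above 0 (tolerance 0.01 of a count), and totals times the step agreed to 0.0194%. Compared by chi-square over its degrees of freedom, the counts gave 3.36 to 7.04 within a treatment and 149 to 170.4 between treatments, so no library was a repeat of another. The totals differed by at most 11.8%. The lowest count behind a member that was tested was 435, for PCSK2 in a PP library.

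The 11726 genes whose FPKM averaged 1 or more across all libraries were fitted on log2(FPKM + 1) with lmFit and eBayes with trend of limma 3.58.1 in R 4.3.3, with Benjamini-Hochberg adjustment. All 9 members tested had a mean above 1 in both groups. Both an adjusted p under 0.05 and the cutoff of the study's methods (P under 0.001, taken as unadjusted, log2 fold change above 1 or below -1) were counted. Pairs were compared by exact permutation with scipy 1.17.1. Python 3.11.15, numpy 2.4.6, pandas 2.3.3 and matplotlib 3.10.9 were also used. The fits were tested on simulated data. Promoter sequences are from RefSeq (GRCh38.p14). The members and lists were chosen with earlier results of these data known. Genes named outside the 10 were those of each list past the cutoff and its 3 most abundant, plus ELAVL3, and some of these were left out of the text. The results for some genes are not reported here. Genes outside this rule that were used to describe a list or to check a label were chosen after their values were seen. Alternatives varied the pseudocount, filter, scaling, trend, test, replicate block and libraries included.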

Additional observations from a re-analysis of the deposited data

How the results depend on the processing

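The 7 members that were lower, and the 2 past the cutoff, kept their counts in every alternative run, and their log2 fold changes kept their sign. *PCSK2* ran from -2.24 to -1.89 and *PCSK1N* from -1.48 to -1.35. Without PP replicate 1 the members called higher went from 1 to 2, because *SCG3* passed (0.14, adjusted p = 0.0157); over the fits without 1 library the count was 1 to 2 and *SCG3* ran from 0.0495 to 0.1434, with adjusted p from 0.0157 to 0.398. With a pseudocount of 0.1 the differences of the log2 ratios were -2.32 for *PCSK2* over *SCG5*, 0.62 for *SCG2* over *SCG3* and 1.88 for *PCSK1* over *PCSK2*, as a smaller pseudocount shrinks low values less. Over all genes, those past the cutoff were 397 higher (from 263) and 559 lower (from 344) with limma-voom on recovered counts, and 531 lower with a pseudocount of 0.1; the cause was not tested. With median-ratio scaling, 1 immune marker was lower in place of 0, and the median of all genes was 0.01. With the replicate number as a replicate block, 1 member was higher, 7 were lower, and 4260 and 3878 of all genes were higher and lower. Same-numbered libraries did not deviate together (correlations -0.21, -0.01 and -0.13). With 3 libraries a group, this cannot tell whether they were paired by design. No call of a member changed with the block.

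The comparison has 3 libraries a group, the concentration of PP was not found in the sources used here, and RNA levels do not show peptide processing. *SCG5* had 1 value above 0, too few to recover its counts, and why it was listed at 0 in the other libraries was not tested. At a mean FPKM under 1 the changes of cargo genes were not tested.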

Other observations

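Some genes of the lists lay below the filter and were not tested, and those given here were chosen after their values were seen. *RAB26*, which encodes a small GTPase of secretory granules, had a mean of 0.604 ± 0.105 FPKM with PBS and 0.0371 ± 0.0195 with PP (SD, 3 libraries). *ACE*, which encodes the angiotensin-converting enzyme, had 0.644 ± 0.0514 and 0.224 ± 0.0982 FPKM. *PTPRN*, a granule membrane gene that many neuroendocrine cells express, was listed at a mean of 0 with PBS and 0.014 FPKM with PP.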
